A study of Mus musculus with 6 samples.

Results

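The inhibitors that the ERK pathway switches on against itself were followed in mouse adult fibroblasts (MAFs), as 10 genes taken by name from the merged count table. They were *Spry1*, *Spry2* and *Spry4* of the Sprouty family, *Spred1*, *Spred2* and *Spred3* of the SPRED family, the phosphatase genes *Dusp4*, *Dusp5* and *Dusp6*, and *Phlda1*. All 10 names had 1 row among the 43346 genes of the table, and all 10 were among the 17589 genes with enough counts for a test. RNA-seq was performed on 3 control and 3 senescent samples of primary MAFs from the ears of C57BL/6J mice, which were adult females, and the cells were kept at 3% oxygen. Senescent cells had been exposed to 20 Gy of X-rays and cultured on for weeks, and control cells had been sham irradiated. Both groups received 100 nM dexamethasone, a glucocorticoid used to synchronize circadian clocks, for 2 hours and were collected 12 hours later, so that no sample was free of the glucocorticoid and the values describe a single time. The labels do not say whether replicates came from separate mice or cultures, and p-values therefore measure the spread between these samples, which may be technical.

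The ERK pathway carries signals from growth factor receptors through the small GTPase Ras and the kinases RAF, MEK and ERK to the nucleus. Active ERK raises transcription of genes whose proteins then dampen the same route at several levels, and RNA of these genes is widely read as a trace of recent ERK activity. Sprouty proteins act near the receptors and Ras, SPRED proteins bring the Ras inhibitor neurofibromin to the membrane, and dual-specificity phosphatases remove the activating phosphates from ERK itself. In fibroblasts the pathway is best known for driving entry into the cell cycle, and strong or lasting activity is also a known trigger of growth arrest.

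Total counts lay between 50288454 and 82229553 per library. Senescent replicate 3 stood apart, with a chi-square per degree of freedom of 74.3 and 103.5 against senescent replicates 1 and 2, where these gave 3.88 against each other and control pairs gave 3.27 to 14.2. Of the senescence markers, *Cdkn1a* (log2 fold change 2.33) and *Cdkn2a* (1.90) were higher and *Mki67* (-5.94) and *Lmnb1* (-3.55) lower in senescent cells. All 8 fibroblast markers were detected, with 3 higher, 5 lower and a summed level of 17580 to 19650 CPM (counts scaled to a common library size after TMM correction) in control and 6495 to 7742 CPM in senescent libraries. Chondrocyte markers fell from 4895 to 5466 CPM in control to 343 to 432 CPM in senescent libraries, with all 7 tested of 8 lower. Macrophage markers summed to 8.30 to 9.01 and 18.3 to 21.1 CPM, endothelial markers to 2.53 to 2.93 and 8.03 to 8.45 CPM, and keratinocyte markers to 16.2 to 17.0 and 9.43 to 9.83 CPM in control and senescent libraries, respectively. All 5 tested of the 6 macrophage markers and all 5 endothelial markers were higher, as was 1 of the 4 tested of 7 keratinocyte markers, of which 1 was lower. Of all genes tested, 36.2% were called higher and 34.1% lower. Some macrophage and endothelial markers were near the floor in control, such as *Cdh5* (mean 0.10 CPM), *Vwf* (0.11) and *Ptprc* (0.18). Such markers entered the test through the senescent libraries and could not have been called lower. Skeletal muscle markers summed to 15.5 to 20.9 and 15.4 to 28.0 CPM, with 2 of the 3 tested of 6 higher, and markers of Schwann cells and melanocytes to 52.3 to 57.2 and 46.8 to 51.9 CPM, with 1 of the 5 tested of 8 higher and 3 lower. No marker was at 0 in all libraries, and the part of these other cell types in the results below was not tested. In bulk samples, fewer cells of a type and less RNA per cell cannot be told apart.

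To determine whether the feedback inhibitors differ between control and senescent cells, their counts were compared within a fit across all genes. RNA of all 10 was higher in senescent cells, by 1.94-fold (*Spred3*) to 14.9-fold (*Spry4*), and for none did the 3 senescent values overlap the 3 control values. In the quasi-likelihood test of edgeR, with p-values adjusted by Benjamini-Hochberg over the 17589 genes, all 10 passed an adjusted p of 0.05, with values between 2.9e-08 and 5.13e-05. Of all genes tested, 70.3% were called, 36.2% higher and 34.1% lower, and the senescent values all lay above the control values in 38.4% and all below them in 37.0%. The limit in the study's methods, an unadjusted p under 0.05 with a log2 fold change over 1, was passed by 9 of the 10, all but *Spred3*, against 17.8% of all genes tested, and 12.3% passed it in the lower direction. The study's results section names another p-value cutoff for these samples, 1e-05, beside the same fold. With this stricter limit on the unadjusted p from edgeR, a setting added after the data had been seen, 8 of the 10 passed, against 8.27% of all genes. The gene lost at this setting was *Spred1*, which missed it narrowly (unadjusted p = 1.01e-05, edgeR). The median log2 fold change of the 10 genes was 2.09, and that of all genes tested was 0.0085. A log2 fold change over 2 was reached by 6 of the 10 genes and by 9.53% of all genes, and one over 3 by 2 of the 10 (*Spry4* and *Dusp4*) and by 5.73% of all genes. The 10 genes were chosen with earlier results of these data known, so the shares set side by side are a description only. Without senescent replicate 3, all 10 genes were again called higher, with log2 fold changes from 0.93 (*Spred3*) to 3.91 (*Spry4*). More of all genes were then called too, 7052 higher and 6643 lower, against 6360 and 6005 with all libraries. Taken alone, no gene can reach a p under 0.1 in an exact permutation test with 3 samples a group, and each of the 10 reached that value.

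**Figure D1:**
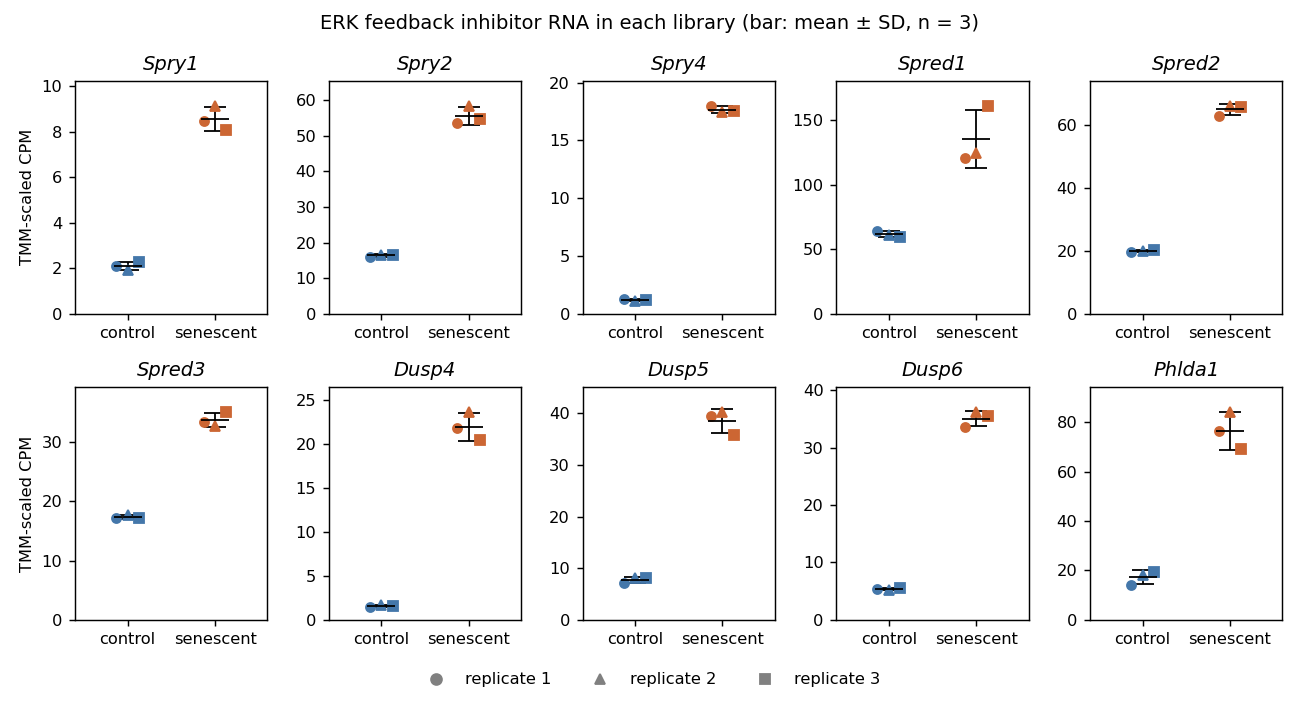
Level of each feedback inhibitor in TMM-scaled CPM (vertical axes, from 0, each gene with its own scale) in 3 control and 3 senescent libraries, with symbols for replicates and bars for mean ± SD. In every panel the 3 senescent points lie above the 3 control points, and the widest senescent spread relative to the mean is that of *Spred1*, from 120.4 to 161 CPM.

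**Figure D2:**
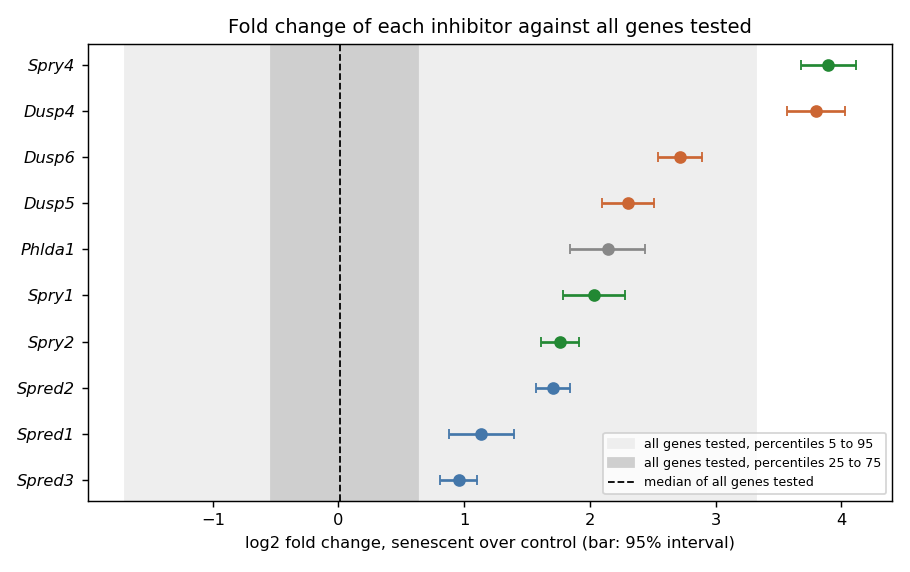
Log2 fold change of senescent over control cells (horizontal axis) for each inhibitor, with its 95% interval as a bar and families in different colours. Grey bands show where all 17589 genes tested fell, from -1.70 to 3.32 for percentiles 5 to 95. *Spry4* and *Dusp4* lie to the right of the outer band, and all 10 genes lie to the right of the inner band, which ends at 0.63.

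The Sprouty genes encode membrane-associated proteins that bind adaptors such as GRB2 and the ubiquitin ligase CBL and restrain Ras and RAF downstream of receptors. *Spry4* (ENSMUSG00000024427, chromosome 18 of mm10 from 38586268 to 38601268) was low in control cells, with 63, 66 and 58 counts in replicates 1, 2 and 3, corresponding to 1.26, 1.10 and 1.19 CPM. In senescent replicates 1, 2 and 3 it was at 17.99, 17.47 and 17.51 CPM. This was the narrowest senescent spread of the 10 genes, and the closest values of the groups differed 13.8-fold. This gave a log2 fold change of 3.90 ± 0.09 (SE; adjusted p = 2.9e-08, edgeR), and 690 of the 17589 genes tested had a larger one.

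*Spry2* (ENSMUSG00000022114, chromosome 14 from 105891949 to 105896819), the most studied Sprouty, was at 16.04, 16.63 and 16.41 CPM in control and 53.5, 58.4 and 54.7 CPM in senescent replicates 1, 2 and 3. The groups were separated 3.22-fold at their closest values, and the log2 fold change was 1.76 ± 0.06 (SE). *Spry1* (ENSMUSG00000037211, chromosome 3 from 37639947 to 37644598), known as an inhibitor of RET signaling in the developing kidney, was at 2.08, 1.92 and 2.29 CPM in control and 8.46, 9.14 and 8.09 CPM in senescent cells. Its log2 fold change of 2.03 (95% interval 1.78 to 2.28) overlapped that of *Spry2* (1.61 to 1.91), and the interval of *Spry4* (3.68 to 4.12) lay above both.

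Levels of different genes were compared as RPKM, the CPM per kilobase of exon length in the table. By this measure *Spry2* made up most Sprouty RNA in both groups. Its share of the summed Sprouty level was 88.6%, 89.8% and 88.3% in control and 79.0%, 80.1% and 79.9% in senescent replicates 1, 2 and 3. The share of *Spry4* rose over the same libraries from 3.17%, 2.71% and 2.90% to 12.1%, 10.9% and 11.6%, without overlap (exact permutation test, two-sided p = 0.1, the smallest that 3 against 3 samples allow). *Spry1* held 8.18% ± 0.69 in control and 8.81% ± 0.28 in senescent cells (SD, n = 3 per group), with overlapping values. Shares of CPM without the length correction shifted by 15.6 in place of 8.60 percentage points for *Spry4*, by -15.4 in place of -9.23 for *Spry2* and by -0.21 in place of 0.63 for *Spry1*, whose direction thus turned. The summed level of the family was 8.83 ± 0.12 RPKM in control and 33.4 ± 1.33 RPKM in senescent cells, a ratio of 3.79.

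**Figure D3:**
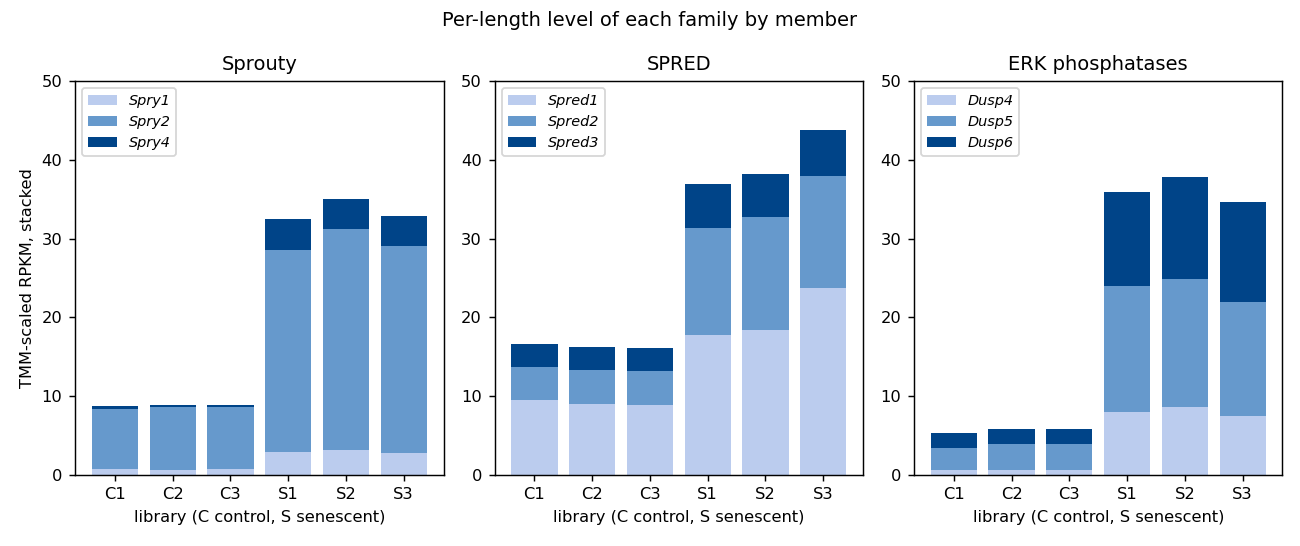
Stacked TMM-scaled RPKM (vertical axis, from 0) of the Sprouty, SPRED and ERK phosphatase members in control (C1 to C3) and senescent (S1 to S3) libraries, one bar per library. Family sums were higher in all senescent libraries, with ratios of group means of 3.79, 2.43 and 6.42, and *Spry4* and *Dusp4* take a larger part of their bars in senescent than in control libraries.

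The SPRED genes, whose proteins share the Sprouty cysteine-rich domain and bind neurofibromin, had the smallest ratio of summed levels of the 3 families, given below. *Spred1* (ENSMUSG00000027351, chromosome 2 from 117121374 to 117182279), which is mutated in Legius syndrome in humans, was at 64.1, 61.1 and 59.7 CPM in control and 120.4, 124.8 and 161 CPM in senescent replicates 1, 2 and 3. Senescent replicate 3 was the high library here. The log2 fold change was 1.14 ± 0.11 (SE) with all libraries and 1.00 without this one, with adjusted p-values of 5.13e-05 and 3.01e-12 from the same edgeR test.

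*Spred2* (ENSMUSG00000045671, chromosome 11 from 19924375 to 20024026), a second neurofibromin partner, was at 19.6, 19.8 and 20.3 CPM in control and 62.9, 66.0 and 65.8 CPM in senescent cells. Replicates lay close together in both groups, and its log2 fold change of 1.71 ± 0.06 (SE) was the largest of the 3 SPRED genes. *Spred3* (ENSMUSG00000037239, chromosome 7 from 29158829 to 29169841), the least studied member, was at 17.2, 17.7 and 17.2 CPM in control and 33.3, 32.7 and 35.0 CPM in senescent cells. It had the smallest change of the 10 genes, a log2 fold change of 0.96 (95% interval 0.81 to 1.11), which does not separate it from a doubling.

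Of the summed SPRED level per length, *Spred1* held 55.8% ± 1.16 in control and 50.2% ± 3.49 in senescent cells (SD, n = 3 per group). The *Spred2* share was 26.5% ± 0.86 and 35.6% ± 2.72, and the *Spred3* share 17.8% ± 0.42 and 14.2% ± 0.86. None of the 3 shares overlapped between the groups, although the *Spred1* share of senescent replicate 3 (54.2%) came close to the lowest control value (54.8%). The family sum was 16.3 ± 0.25 RPKM in control and 39.6 ± 3.69 RPKM in senescent cells, a ratio of 2.43. In control cells SPRED RNA per length exceeded that of the Sprouty family or of the 3 phosphatases, and in senescent cells the 3 sums lay nearer to each other, at 39.6, 33.4 and 36.2 RPKM.

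The 3 phosphatases dephosphorylate ERK on its threonine and tyrosine residues. DUSP6 is cytoplasmic and selective for ERK, DUSP5 is its nuclear counterpart, and DUSP4 is nuclear and also acts on other MAP kinases. *Dusp4* (ENSMUSG00000031530, chromosome 8 from 34807297 to 34819894) was at 1.504, 1.64 and 1.574 CPM in control, from 75, 98 and 77 counts, and at 21.8, 23.6 and 20.4 CPM in senescent replicates 1, 2 and 3. The log2 fold change was 3.80 ± 0.10 (SE), and the closest values of the 2 groups differed 12.5-fold. *Dusp6* (ENSMUSG00000019960, chromosome 10 from 99263231 to 99267488) was at 5.29, 5.15 and 5.56 CPM in control and 33.5, 36.2 and 35.5 CPM in senescent cells, giving a log2 fold change of 2.72 ± 0.08 (SE). *Dusp5* (ENSMUSG00000034765, chromosome 19 from 53529109 to 53542431) was at 7.12, 8.18 and 8.09 CPM in control and 39.6, 40.3 and 35.9 CPM in senescent cells, giving a log2 fold change of 2.30 ± 0.09 (SE). The 95% intervals of *Dusp4* (3.57 to 4.03), *Dusp6* (2.54 to 2.90) and *Dusp5* (2.10 to 2.51) did not overlap.

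The balance between the phosphatases shifted toward *Dusp4*. Per length it held 10.2% ± 0.30 of their summed level in control and 22.1% ± 0.62 in senescent cells (SD, n = 3 per group). *Dusp5* went from 55.9% ± 1.73 to 43.1% ± 1.34, while *Dusp6* held 33.9% ± 1.77 and 34.8% ± 1.70, with overlapping values. The shifts of *Dusp4* and *Dusp5* did not overlap between the groups (exact permutation test, two-sided p = 0.1 for each, the smallest possible). Together the 3 phosphatases went from 5.64 ± 0.28 to 36.2 ± 1.59 RPKM, a ratio of 6.42 and the largest of the 3 families.

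*Phlda1* (ENSMUSG00000020205, chromosome 10 from 111506286 to 111508645) encodes a protein with a pleckstrin homology-like domain and is a common member of ERK activity signatures. It was at 14.2, 18.3 and 19.4 CPM in control and 76.4, 84.1 and 69.0 CPM in senescent replicates 1, 2 and 3. Its control spread, 1.36-fold from lowest to highest, was the widest of the 10 genes, and the log2 fold change was 2.14 ± 0.13 (SE). The annotation holds the lincRNA *Gm28592* on the opposite strand over 1088 bases of *Phlda1*, with at most 9 counts in a library. Opposite-strand genes also overlap *Spry1* (*Gm42922*, 710 bases), *Dusp5* (the antisense gene *AC137853.2*, 547 bases) and *Spry4* (*Gm27369* and *Gm27804*, 71 and 119 bases, both at 0 counts). Neither *Gm42922* nor *AC137853.2* had a row in the count table. The strand setting of the counting is not given in the sources used here, so reads from the opposite strand cannot be told apart.

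Ordered by level per length, *Spred1* (9.09 ± 0.33 RPKM) led in control cells, followed by *Phlda1* (7.85 ± 1.23) and *Spry2* (7.85 ± 0.14), which could not be separated. *Spred2* (4.31 RPKM), *Dusp5* (3.15) and *Spred3* (2.90) came next, of which the last pair overlapped, and then *Dusp6* (1.91), *Spry1* (0.72), *Dusp4* (0.57) and *Spry4* (0.26). In senescent cells the order of mean RPKM was *Phlda1* (34.7 ± 3.42), *Spry2* (26.6 ± 1.22), *Spred1* (20.0 ± 3.30), *Dusp5* (15.6), *Spred2* (14.1), *Dusp6* (12.6), *Dusp4* (8.01), *Spred3* (5.62), *Spry4* (3.85) and *Spry1* (2.95). No neighbours in the senescent order overlapped. *Spry4*, lowest of all in control cells, thus passed *Spry1*, and *Dusp4* passed *Spred3* and *Spry1*. The 10 genes summed to 38.6 ± 1.38 RPKM in control and 143.9 ± 4.67 RPKM in senescent cells (SD, n = 3 per group).

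Since the members rose together and the study is about BMAL1 and AP-1, their promoters were read for the motifs of both. RefSeq windows of GRCm38.p6, the assembly behind mm10, reach from 250 bases before to 50 bases after the start of transcription and were matched for 7 of the 10 genes, all but *Spry4*, *Dusp4* and *Phlda1*. Each motif was searched on both strands. None of the 7 windows held the E-box CACGTG, which 7.15% of all 32851 windows held, the AP-1 motif TGACTCA or TGAGTCA (5.2%) or the full cAMP response element TGACGTCA (1.79%). At such low shares, 7 windows are too few to show a lack of these motifs. The study mapped BMAL1 binding by ChIP-seq, which was not analysed here. After the sequences had been read, 3 further motifs were added. The exact sequence CCGGAAGT, a form of the ETS motif held by 3.89% of all windows, was in none. Other forms of the ETS motif were not searched. The shorter site TGACG, which is part of TGACGTCA and was in 20.8% of all windows, was in those of *Spred2* and *Dusp5*. A CArG box, the sequence bound by serum response factor, was found in 1.63% of all windows and 2 times, side by side, in that of *Dusp5*, at positions -82 to -73 and -72 to -63 from the start. These windows are shown with that of *Dusp6*, the ERK-selective phosphatase, which held none of the motifs searched. A match describes the letters only, and sites outside the windows were not searched. Capitals mark the CArG boxes and TGACG or its reverse complement CGTCA. Sequences run 5′ to 3′ along the strand of the gene, which is the plus strand in all 3.
Dusp5, chr19:53528895-53529194: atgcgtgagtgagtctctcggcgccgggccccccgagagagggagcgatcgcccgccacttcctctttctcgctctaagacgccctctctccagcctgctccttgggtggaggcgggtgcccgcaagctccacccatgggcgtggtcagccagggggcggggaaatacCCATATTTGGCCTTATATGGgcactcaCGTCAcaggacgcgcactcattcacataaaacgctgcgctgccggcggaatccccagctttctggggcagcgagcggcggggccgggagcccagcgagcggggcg
Spred2, chr11:19924192-19924491: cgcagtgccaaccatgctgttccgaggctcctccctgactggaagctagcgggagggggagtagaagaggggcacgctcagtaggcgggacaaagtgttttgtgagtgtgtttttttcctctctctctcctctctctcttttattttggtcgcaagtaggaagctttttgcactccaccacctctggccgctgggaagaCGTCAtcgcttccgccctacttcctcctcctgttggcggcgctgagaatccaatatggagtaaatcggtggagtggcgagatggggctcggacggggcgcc
Dusp6, chr10:99262981-99263280: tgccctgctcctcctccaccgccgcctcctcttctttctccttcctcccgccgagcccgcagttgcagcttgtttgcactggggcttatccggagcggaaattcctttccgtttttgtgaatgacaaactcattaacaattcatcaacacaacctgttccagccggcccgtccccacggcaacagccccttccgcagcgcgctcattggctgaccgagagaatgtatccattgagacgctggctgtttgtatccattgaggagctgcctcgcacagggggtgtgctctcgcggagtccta

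The 7 windows were rich in G and C, with 55.0% (*Spred3*) to 72.3% (*Spred1*) against a median of 52.7% over all windows. They held 8 (*Spred3*) to 40 (*Spred1*) CG dinucleotides, where the median window held 7. The RefSeq start of *Spred3* lies 1194 bases and that of *Spred1* 303 bases from the gene start used in the count table, so that the *Spred1* window lies wholly outside the gene as counted.

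Upstream of the inhibitors, RNA of receptor tyrosine kinase ligands rose widely. Of 36 listed ligands 34 were tested, and in senescent cells 30 were called higher and 1 (*Egf*) lower in the same edgeR test, with a median log2 fold change of 3.44. Of all genes tested, 36.2% were called higher and 34.1% lower. This list and those below were, like the 10 genes, chosen with earlier results of these data known. *Igf1*, *Vegfb* and *Gas6* were not called. Several ligands had few control counts and entered the test through the senescent libraries. When no library was allowed fewer than 10 counts, 26 ligands remained, of which 22 were called higher and 1 lower. Their median was then 2.21. All 15205 such genes had a median of -0.02, with 5151 called higher and 5286 lower. *Hbegf*, an EGF receptor ligand, went from 18.2, 17.5 and 18.3 CPM to 377.5, 377.9 and 417 CPM. *Igf2*, which acts through the IGF1 receptor, *Bdnf*, the ligand of TrkB, and *Nrg1*, a ligand of ERBB receptors, had log2 fold changes of 3.87, 4.23 and 4.37.

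Receptor and cascade RNA showed no such common direction, where 36.2% of all genes tested were called higher and 34.1% lower. Of 20 tested receptor tyrosine kinases, 9 were higher, 7 lower and 4 not called, with a median log2 fold change of 0.05. *Fgfr1*, *Erbb3*, *Pdgfrb* and *Insr* were those not called. *Pdgfra*, *Csf1r* and *Kdr* are on this list and also on those of fibroblast, macrophage and endothelial markers. *Egfr* rose from 25.5 ± 0.27 to 82.3 ± 4.94 CPM (SD, n = 3 per group), *Fgfr2* fell from 287 ± 5.31 to 105 ± 0.87 CPM, and *Fgfr3*, a receptor of growth plate chondrocytes, fell from 116 ± 4.58 to 10.2 ± 1.74 CPM. The chondrocyte markers given above fell over the same libraries, and their part in the *Fgfr3* value was not tested. *Flt1*, a receptor for VEGF, rose from 0.23 ± 0.03 to 7.19 ± 0.51 CPM, beside the rise of the endothelial markers. Among the 25 adaptors and kinases from SHC1 to the RSK family, 9 were higher, 8 lower and 8 not called, and only *Ksr1* and *Rps6ka1* fell by more than 2-fold, with log2 fold changes of -1.75 and -1.76, while none rose that far. *Gab1*, an adaptor, had a log2 fold change of -0.82, and *Ptpn11*, the phosphatase SHP2 that promotes Ras activation, one of 0.59.

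Other negative regulators of the route were called in both directions. Of 20 tested, 13 were higher, 4 (*Lrig3*, *Rasa3*, *Pebp1* and *Erf*) lower and 3 not called, with a median log2 fold change of 0.39. Over all genes tested the shares were 36.2% higher and 34.1% lower. *Errfi1*, an inhibitor of EGF receptor family kinases, rose from 107 ± 3.31 to 362 ± 23.1 CPM (SD, n = 3 per group). *Lrig1*, which promotes degradation of ERBB receptors, rose from 20.0 ± 0.43 to 67.9 ± 5.78 CPM, whereas its relative *Lrig3* fell from 123 ± 1.79 to 57.2 ± 2.26 CPM. *Pea15a*, which holds ERK in the cytoplasm, had a log2 fold change of 1.27.

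The MAP kinase phosphatases that are not among the 10 genes were split by size of change. *Dusp1*, a phosphatase that glucocorticoids are known to induce, was at 30.5, 28.6 and 28.0 CPM in control and 118, 116.6 and 104.6 CPM in senescent cells, and *Dusp10*, which prefers the stress-activated kinases, had a log2 fold change of 1.67. *Dusp2*, chosen after its values had been seen, had 3, 1 and 1 counts in control and 67, 53 and 62 counts in senescent replicates 1, 2 and 3. *Dusp16* (0.35) and *Dusp7* (0.31) were called higher with small log2 fold changes, and *Dusp8* and *Dusp9* were not called. The call of *Dusp7* had an adjusted p of 0.0439 (same edgeR test), and it was lost without any one of the 3 control libraries or senescent replicate 1 or 2 (0.0814 to 0.144). The 7 genes had a median log2 fold change of 0.35.

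Transcripts known to be induced by ERK were mostly higher. RNA gives no measure of ERK protein or its phosphorylation, and ERK activity was not tested. Of 23 tested, 20 were higher, 1 (*Fos*) was lower and 2 (*Junb* and *Ier2*) were not called, with a median log2 fold change of 1.32. Beside these stand 36.2% higher and 34.1% lower among all genes tested. *Ccnd1*, which encodes cyclin D1, rose from 237.5 ± 11.3 to 871 ± 24.8 CPM (SD, n = 3 per group). *Etv5*, an ETS factor regulated with the Sprouty genes downstream of FGF, rose from 25.4 ± 0.29 to 68.2 ± 4.18 CPM, and *Egr2* and *Atf3* had log2 fold changes of 1.89 and 3.86. The relatives of *Etv5*, *Etv1* and *Etv4*, chosen after their values had been seen, had log2 fold changes of 2.53 and 2.46.

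Of the *Phlda1* relatives, *Phlda3*, a p53 target, rose from 66.3 ± 3.88 to 133.8 ± 17.0 CPM (SD, n = 3 per group), and *Phlda2* also passed the test at levels under 1 CPM. Among 6 partners of Sprouty proteins, *Nedd4*, a ubiquitin ligase, had a log2 fold change of -1.06 and *Mknk1*, a kinase downstream of ERK, one of -0.19 (adjusted p = 0.0199, same edgeR test). The call of *Mknk1* was lost without control replicate 2, control replicate 3 or senescent replicate 1 (0.0637 to 0.0851). *Dyrk1a* (0.11), *Tesk1* (0.31), *Cav1* (0.08) and *Siah2* (0.11) were not called. Without senescent replicate 3, in which *Tesk1* was at 20.1 CPM beside 31.3 and 34.2 CPM in the other two, *Tesk1* was called higher, with a log2 fold change of 0.52.

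**Figure D4:**
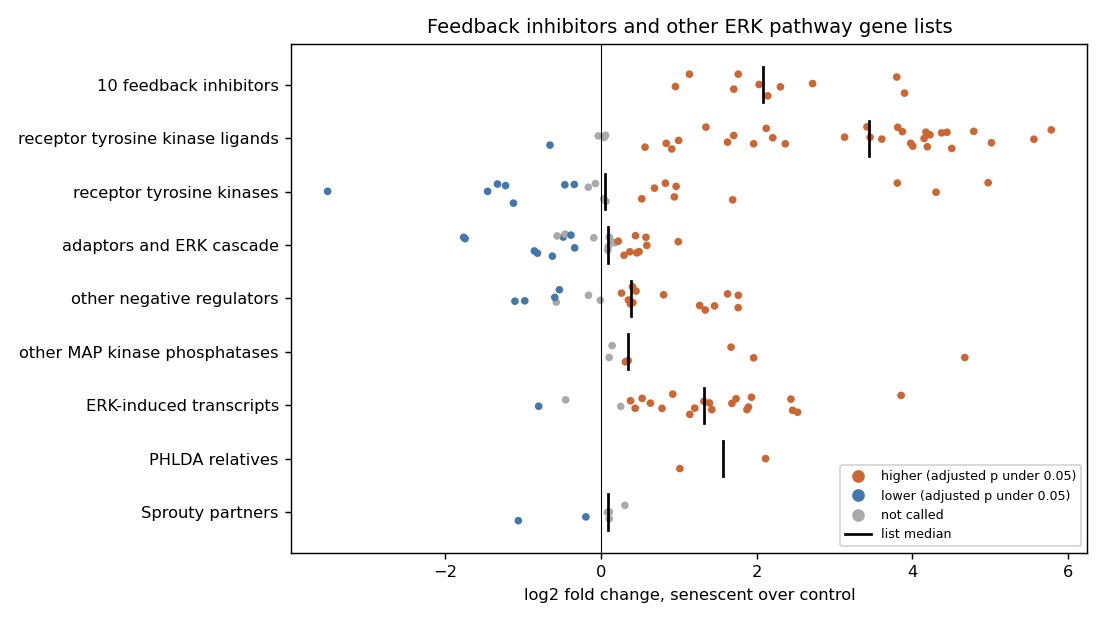
Log2 fold change of senescent over control cells (horizontal axis) for every tested gene of each pathway list, one point per gene, coloured by its call, with the list median as a black line. All 10 feedback inhibitors lie right of 0 with a median of 2.09, ligands and ERK-induced transcripts lie mostly to the right with medians of 3.44 and 1.32, and receptors and the cascade lie on both sides with medians of 0.05 and 0.09. Some ligands entered the test through the senescent libraries, and the 26 ligands with at least 10 counts in every library had a median of 2.21.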

How the data were processed

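Polyadenylated RNA of 3 control and 3 senescent MAF samples was sequenced from stranded libraries made from 200 ng of RNA. The authors aligned read pairs to mm10 by STAR, counted them per gene with Subread in the MAPRSeq pipeline, and deposited raw counts without normalization. The strand setting and the treatment of reads mapping to several places are not given in the sources used here, so near-identical, overlapping and antisense genes are uncertain. The deposited length column (other unit, in bases) gave RPKM.

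Genes were filtered with filterByExpr, scaled by TMM and compared with the robust quasi-likelihood test of edgeR 4.0.16 (R 4.3.3), two-sided, with the group as only term and Benjamini-Hochberg adjustment. The standard error is the log2 fold change divided by the square root of F. A gene was called at an adjusted p under 0.05. The alternatives were RLE scaling, library size alone, no filter, a minimum of 10 counts in each library, the edgeR exact test, DESeq2 1.42.0, a replicate term and each library left out.

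The members and lists were chosen with earlier results of these data known. From each pathway list, the text names up to 4 genes of smallest p with a mean of at least 100 counts, members that complete a count of 5 or fewer, genes that stand on 2 lists, and those said to be chosen later; the names of uncalled negative regulators are not reported here. *Adgre1* was matched by identifier, and *Spry3* was not analysed here. Promoter windows came from RefSeq, overlaps from GENCODE M21. Depth limits are given by total counts of 50288454 to 82229553, and reads carried no molecular identifiers.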

Additional observations from a re-analysis of the deposited data

How the results depend on the processing

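All 10 feedback inhibitors were called higher under each of the 13 alternatives. Of all genes, 5151 to 7705 were called higher and 5284 to 6643 lower under these, with the number tested depending on the filter. The 130 log2 fold changes of the inhibitors lay between 0.93 and 3.98, with adjusted p-values of at most 0.000537 (edgeR or DESeq2). Labels share replicate numbers between groups but do not say that these mark pairs, so the numbers were not taken as pairs. Deviations of same-numbered libraries from their group means correlated at -0.15, 0.14 and -0.12, and control replicate 1 correlated best with senescent replicate 3 (0.26). With 3 libraries a group such deviations depend on each other, so these values cannot decide whether the numbers mark pairs. With the replicate number as a block, 10 inhibitors and 5964 of all genes were called higher and 5660 lower, against 6360 and 6005 without it. Of 274 counts of calls, 265 stayed within 1.5 times. The others were in 2 small lists. Calls of Sprouty partners went from 2 lower to 1 with library size alone, at least 10 counts in every library or the block, and from 0 higher to 1 with library size alone, and the cause was not tested. These are *Mknk1* (adjusted p 0.12, 0.056 and 0.0758, edgeR) and *Dyrk1a* (0.0327). *Dusp7* lost its call with the block (0.0649, edgeR). Leaving out 1 library gave 1 to 2 lower and 0 to 1 higher. With at least 10 counts in every library, 1 of the *Phlda1* relatives was called, since *Phlda2* was not tested. Without the length correction the *Spry1* share moved by -0.21 in place of 0.63 percentage points, that of *Spry2* by -15.4 in place of -9.23 and that of *Spry4* by 15.6 in place of 8.60. The *Dusp6* share changed by 0.85 percentage points with all libraries, and by between -0.101 and 1.69 with 1 left out, so that its direction is not settled. Scaling moved the median log2 fold change of all genes by at most 0.0777. With 3 samples a group, a change of a share cannot pass an exact test.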

Other observations

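The genes whose pattern over the 6 libraries was most like that of *Dusp6*, by Pearson's r of log2 CPM among the 12948 tested genes averaging 100 counts or more, were *Msx2* (r = 0.99988), a homeobox gene, *Ankrd1* (0.99976), a target of YAP, and *Thbd* (0.99976), which encodes thrombomodulin. For *Spry4* they were *Tnfaip3* (0.99999), an inhibitor of NF-kB signaling, *Crabp2* (0.99995), a carrier of retinoic acid, and *Fam110c* (0.99994). All 6 rose with their inhibitor, with log2 fold changes from 1.77 (*Msx2*) to 4.38 (*Fam110c*). These r values describe libraries that fall into 2 separate groups, so that 1143 genes exceeded 0.99 with *Dusp6* and 1147 with *Spry4*, and they are no measure of likeness within a group.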
